A study of Mus musculus with 4 samples.

Results

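The small leucine-rich proteoglycans are secreted matrix proteins that share a core of leucine-rich repeats, and 10 of their genes were followed in single cells of the mouse incisor: Dcn, Lum, Bgn, Fmod, Omd, Ogn, Aspn, Prelp, Kera and Epyc. The genes were taken by symbol from the 32285 genes of the deposited count matrices, and each symbol was found once. Tissue came from the proximal end of the lower incisors at postnatal day 15, from WT mice (2 libraries) and from Din-KO mice (2 libraries). Din-KO mice carry a germline deletion of an exon of Din (4930453N24Rik) with a LacZ reporter in the locus, and they descend from 1 gene-trap embryonic stem cell clone. The tissue was dissociated with liberase and DNase, dead cells were removed, and the remaining cells were barcoded without sorting. Neither the number of mice in a library nor their strain is given in the sources used here, so the library is the replicate. P-values between genotypes measure the spread between libraries. Those between classes rest on a spread between libraries that is pooled, for each gene, over all the classes compared. They do not measure how far a single class difference varies from library to library.

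Proteins of this family bind collagen fibrils and set how thick the fibrils grow and how they are spaced. Decorin and biglycan (Dcn, Bgn) carry chondroitin or dermatan sulfate chains, and asporin (Aspn) belongs to the same class but lacks the usual chain attachment site. Lumican, fibromodulin, keratocan and osteoadherin (Lum, Fmod, Kera, Omd) can carry keratan sulfate, and Prelp is their relative with a basic amino-terminal end that binds heparin. Mimecan and epiphycan (Ogn, Epyc) form the third class. In teeth, decorin, biglycan, lumican and osteoadherin are known from predentin and dentin, the matrices laid down by odontoblasts, and asporin is known from the periodontal ligament, which forms from the dental follicle.

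Unique molecular identifiers (UMIs) mark single transcripts near their 3' end in these 10x Genomics libraries, so levels were compared between cells and not between genes. The 4 libraries held between 32198098 and 54348039 UMIs, and 11310 of 20502 barcodes passed the filters on genes, mitochondrial and hemoglobin UMIs. Cells were grouped into 32 clusters without using the 10 genes, and 29 clusters could be named from marker lists. Dental pulp-like cells numbered 4478, odontoblast-like cells 897, dental follicle-like cells 1427 and perivascular-like cells 78. The marker lists were highest in the class they name in every library. Clusters were named by these lists, so this describes the classes and is no separate check of their names. The summed level of 10 perivascular markers lay between 14419 and 19348 UMIs per 1000000 (CPM) in perivascular-like cells and at 199.7 CPM or less in the other 3 classes. Vtn, a perivascular marker, had no UMI in the perivascular-like cells of both Din-KO libraries. Perivascular-like cells were few, between 10 and 26 per library. The odontoblast-like class was made of different cells in different libraries: the cluster led by Bglap and Dspp, a dentin matrix gene, gave 35 of 219 and 85 of 174 cells in WT replicates 1 and 2, and 44 of 354 and 62 of 150 cells in Din-KO replicates 1 and 2. This cluster scored nearly as high for osteoblast as for odontoblast markers (3.21 against 3.5), and the summed level of 6 osteoblast markers in the odontoblast-like class was 1235, 10955, 1788 and 9669 CPM in the same order of libraries. Between 0 and 4 barcodes of kept cells were shared by any pair of libraries. Cells with Y-linked transcripts made up 0% of the 4 classes in both WT libraries, 43.8% and 43.75% in the Din-KO libraries, so the sexes are unevenly spread over the genotypes, and Bgn lies on the X chromosome. Din itself was counted in Din-KO cells too, at 26.3 and 37.2 CPM in dental pulp-like cells against 37.0 and 37.3 CPM in WT, and where in the gene these 3' counts lie relative to the deleted exon was not tested, so they do not check the labels.

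**Figure D1:**
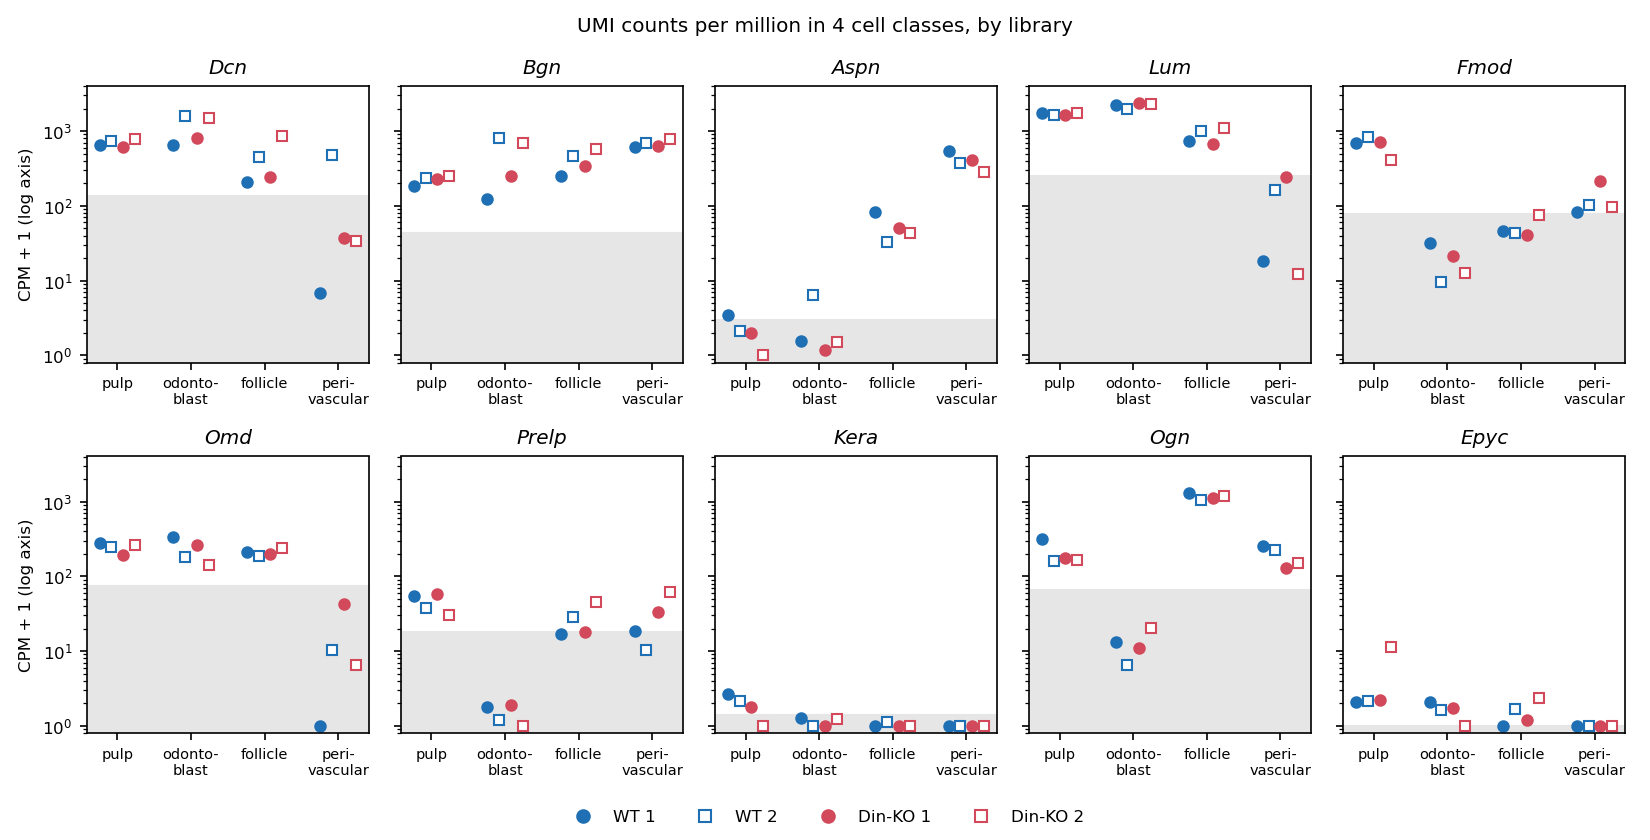
CPM plus 1 (log axis) of the 10 genes in dental pulp-like, odontoblast-like, dental follicle-like and perivascular-like cells. Each point is 1 library (blue WT, red Din-KO, filled replicate 1, open replicate 2), and the grey band reaches up to the highest of 16 immune class-by-library sums. Aspn lies at or above 282 CPM in perivascular-like cells of every library, Ogn at or above 1047 CPM in dental follicle-like cells, and Kera stays below 2 CPM throughout.

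Many of the genes lie next to each other. On chromosome 13 Aspn, Omd and Ogn follow each other on the plus strand, 14896 and 15223 bases apart, and on chromosome 10 Dcn, Lum, Kera and Epyc follow each other, 46984, 34175 and 30375 bases apart (GENCODE annotation of GRCm38). Prelp and Fmod lie 115839 bases apart on chromosome 1, on opposite strands, and Bgn lies on X, at 73483602 to 73495933. The neighbours Aspn, Omd and Ogn had unlike class levels: Aspn was highest in perivascular-like cells, Ogn in dental follicle-like cells, and Omd was similar in the other 3 classes and low in perivascular-like cells. The 250 bases before the annotated starts of these 3 genes are shown for that reason, and those of Bgn for their unlike base composition. The sequences are RefSeq promoter windows of build GRCm38.p6, plus strand, at chr13:49544193-49544442 (Aspn), chr13:49582212-49582461 (Omd), chr13:49607765-49608014 (Ogn) and chrX:73483351-73483600 (Bgn). Capitals mark matches, on either strand, to TATAAA (letters bound by the TATA-binding protein), to CCAAT (by the factor NF-Y), to GGGCGG (by Sp factors) and to ACCACA (by Runx factors). TGANTCA, a motif of the AP-1 factors, was also searched and matched in none of the 9 windows found for 8 of the 10 genes.
Aspn: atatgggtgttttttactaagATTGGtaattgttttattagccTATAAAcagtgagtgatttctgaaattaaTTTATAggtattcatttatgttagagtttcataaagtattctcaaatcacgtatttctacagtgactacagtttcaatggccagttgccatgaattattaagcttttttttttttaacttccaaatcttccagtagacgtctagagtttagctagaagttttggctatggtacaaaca
Omd: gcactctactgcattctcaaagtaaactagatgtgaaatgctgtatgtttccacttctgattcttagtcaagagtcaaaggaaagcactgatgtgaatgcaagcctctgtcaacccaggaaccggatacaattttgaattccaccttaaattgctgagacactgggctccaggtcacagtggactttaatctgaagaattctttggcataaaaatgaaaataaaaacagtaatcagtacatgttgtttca
Ogn: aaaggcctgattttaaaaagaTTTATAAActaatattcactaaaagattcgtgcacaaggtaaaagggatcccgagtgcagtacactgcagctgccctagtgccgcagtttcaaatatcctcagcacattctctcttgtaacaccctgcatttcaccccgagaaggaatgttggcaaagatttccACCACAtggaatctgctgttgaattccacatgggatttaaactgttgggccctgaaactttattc
Bgn: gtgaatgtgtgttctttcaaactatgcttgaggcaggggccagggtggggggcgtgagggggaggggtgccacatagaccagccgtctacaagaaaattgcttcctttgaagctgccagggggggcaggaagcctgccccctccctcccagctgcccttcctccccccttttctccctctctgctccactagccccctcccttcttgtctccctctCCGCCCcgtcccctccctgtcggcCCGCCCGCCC

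TATAAA stood in 12.4% of 32851 promoter windows of the same length and, among the windows of the family, in those of Aspn and Ogn. In Ogn the 2 matches overlap on opposite strands. In both genes the matches lay over 170 bases before the start, between 207 and 173 bases in Aspn and between 229 and 222 bases in Ogn. GGGCGG stood in 32.7% of all windows and in Bgn alone among these genes, with 3 matches in the last 34 bases, of which the last 2 overlap. CCAAT stood in 33.8% of all windows and in Aspn, Prelp and Kera, ACCACA in 14.0% and in Ogn, and TGANTCA in 6.75%. All 250 bases of the Kera window lie in exons of Kera in the GENCODE annotation, so by that annotation its matches are in transcribed sequence. The Bgn window was the richest in G and C of those found for the family, with 64.4% against a median of 52.4% over all windows, and the Aspn window had 30.0%, with 31.2% in 1 of the Epyc windows. The matches are letters in a window and were not tested as binding sites. No window was found for Dcn and Lum.

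Levels are given for the 4 libraries in the order WT replicate 1, WT replicate 2, Din-KO replicate 1 and Din-KO replicate 2, and differences between classes come from edgeR's quasi-likelihood test on UMIs summed per library and class, with the library as a block and Benjamini-Hochberg adjustment over 13154 genes. All contrasts between classes came from a single fit, so a gene's standard errors pool its spread over the classes. A negative log2 fold change means a lower level in the class named first. These p-values take the classes as given, although the classes were built from other genes of the same cells. Kera and Epyc did not pass the filter on low counts in these comparisons.

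Aspn, which binds collagen and TGF-beta and is known to restrain mineralization, had its highest class level in perivascular-like cells. Its level there was 537, 368, 411 and 282 CPM (mean 400 ± 106, SD, n = 4 libraries, from 313 UMIs). In dental follicle-like cells it was 80.5, 31.7, 50.0 and 42.8 CPM, so every library was lower than every perivascular-like sum, but 1 dental follicle-like cluster, led by Spp1, held 225 to 351 CPM and overlapped the perivascular-like range. In dental pulp-like cells it was 2.41, 1.14, 0.98 and 0 CPM, from 60 UMIs in 4478 cells, near the highest immune sum of 1.96 CPM. Against dental pulp-like cells Aspn was higher in perivascular-like cells by 8.04 ± 0.49 (log2, SE, adjusted p = 5.02e-09) and in dental follicle-like cells by 5.18 ± 0.46 (adjusted p = 2.5e-07). It was higher in perivascular-like than in dental follicle-like cells by 2.86 ± 0.35 (adjusted p = 1.77e-05). Odontoblast-like cells held 0.53, 5.38, 0.18 and 0.49 CPM, with 26 of 31 UMIs in WT replicate 2, and the difference from dental pulp-like cells was 0.53 ± 0.73 (adjusted p = 0.587). Without that library it was -1.69 (adjusted p = 0.0293), so the direction rests on 1 library, and over the 4 fits with 1 library left out it lay between -1.69 and 1.38.

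Ogn, mimecan, first known as a factor of bone, was a dental follicle-like gene. Its level in these cells was 1308, 1047, 1123 and 1199 CPM (mean 1169 ± 111, SD, n = 4). Dental pulp-like cells held 312, 159, 176 and 163 CPM, and odontoblast-like cells 12.3, 5.59, 9.91 and 19.4 CPM, so the 3 classes did not overlap in any library. The odontoblast-like values lay within the range of the immune classes, whose highest sum was 63.5 CPM. Ogn was higher in dental follicle-like than in dental pulp-like cells by 2.58 ± 0.23 (log2, adjusted p = 2.87e-07), and lower in odontoblast-like than in dental pulp-like cells, with a log2 fold change of -3.89 ± 0.27 (adjusted p = 2.41e-08). The contrast of dental follicle-like with odontoblast-like cells, 6.47 ± 0.29 (adjusted p = 1.52e-10), had the smallest p of any tested value of the family. Perivascular-like cells held 257, 221, 128 and 149 CPM, a range that overlapped that of dental pulp-like cells, and differed from them by -0.20 ± 0.27 (adjusted p = 0.659).

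Fmod, fibromodulin, a regulator of fibril growth and cross-linking in tendon and dentin, was high in dental pulp-like cells, at 700, 827, 716 and 411 CPM (mean 663 ± 178). Odontoblast-like cells held 30.7, 8.48, 20.0 and 11.5 CPM, and dental follicle-like cells 44.7, 41.9, 39.4 and 75.0 CPM, both within the range of the immune classes, whose highest sum was 76.8 CPM. The dental follicle-like clusters were uneven, with 62.4 to 411 CPM in the one led by Spp1 and 61.1 to 127 CPM in the one led by Lpl. Those led by Tnn and Sfrp2 held at most 41.7 CPM. Perivascular-like cells held 81.7, 101, 215 and 94.1 CPM, with single cells giving 6 of 14, 8 of 22, 29 of 47 and 12 of 17 UMIs. No library of the other 3 classes reached the lowest dental pulp-like value. Against dental pulp-like cells Fmod fell by 5.08 on the log2 scale in odontoblast-like cells (SE 0.35, adjusted p = 2.55e-08), by 3.68 in dental follicle-like cells (SE 0.32, adjusted p = 2.23e-07) and by 2.53 in perivascular-like cells (SE 0.37, adjusted p = 8.14e-05).

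Prelp, a heparin-binding relative of fibromodulin that anchors basement membranes to connective tissue, followed Fmod in odontoblast-like cells. Dental pulp-like cells held 53.4, 36.9, 57.4 and 29.5 CPM. Odontoblast-like cells held 0.80, 0.21, 0.88 and 0 CPM, from 9 UMIs in 897 cells, and dental follicle-like cells 15.7, 27.5, 16.7 and 44.2 CPM. The odontoblast-like level was lower than the dental pulp-like level in every library, by 6.34 on the log2 scale (log2 fold change -6.34 ± 0.55, adjusted p = 2.27e-07). The difference between dental follicle-like and dental pulp-like cells was smaller, -0.88 ± 0.31 (adjusted p = 0.0342), and Din-KO replicate 2 went the other way. That call was lost without WT replicate 1 (adjusted p = 0.259) and without Din-KO replicate 1 (adjusted p = 0.319).

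Lum, lumican, which shapes fibrils in the cornea and in predentin, was high in both dental pulp-like cells, at 1742, 1620, 1615 and 1746 CPM, and odontoblast-like cells, at 2241, 1997, 2398 and 2297 CPM. The odontoblast-like level was the higher one in each library, but the difference of 0.62 ± 0.33 did not pass the threshold (adjusted p = 0.135). Dental follicle-like cells held 724, 1007, 661 and 1090 CPM, and perivascular-like cells 17.5, 161, 242 and 11.1 CPM, with 1 cell giving 32 of 35 UMIs in WT replicate 2 and 1 cell 41 of 53 in Din-KO replicate 1. Lum was lower in dental follicle-like than in odontoblast-like cells by 1.57 on the log2 scale (log2 fold change -1.57 ± 0.33, adjusted p = 0.00113), and lower in perivascular-like than in dental pulp-like cells, with -4.04 ± 0.43 (adjusted p = 2.83e-06). With cells named one by one from markers, which gave more perivascular-like cells, that value was -1.11 (adjusted p = 0.000666). The smaller difference between dental follicle-like and dental pulp-like cells, -0.94 ± 0.33 (adjusted p = 0.0333), was lost without WT replicate 1 (adjusted p = 0.101) or without Din-KO replicate 1 (adjusted p = 0.0975).

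Dcn, decorin, which limits lateral fibril growth and binds TGF-beta, held 645, 741, 611 and 772 CPM in dental pulp-like cells and 656, 1592, 797 and 1506 CPM in odontoblast-like cells. The 2 replicates numbered 2, in which the cluster led by Bglap and Dspp and the osteoblast markers made up more of the class, were the high ones, and the class difference of 0.74 ± 0.43 did not pass the threshold (adjusted p = 0.172). Dental follicle-like cells held 206, 443, 243 and 869 CPM. They were lower than odontoblast-like cells in every library (log2 fold change -1.64 ± 0.44, adjusted p = 0.00593), a call lost without Din-KO replicate 1 (adjusted p = 0.0519) and with DESeq2 (adjusted p = 0.0635). The dental follicle-like clusters were uneven, with 478 to 1786 CPM in the one led by Spp1 and 427 to 2175 CPM in the one led by Lpl. These ranges overlapped those of both odontoblast-like clusters. Perivascular-like cells held 5.84, 479, 36.5 and 33.2 CPM, and 1 cell gave 71 of the 104 UMIs of WT replicate 2. The log2 fold change against dental pulp-like cells was -2.75 ± 0.56 (adjusted p = 0.00164). It was -4.98 without WT replicate 2. Among cells with Xist it was -1.94 (adjusted p = 0.0758), with perivascular-like cells of the 2 WT libraries only. With cells named one by one it was -0.24 (adjusted p = 0.533), so the call depends on which cells are named. Against dental follicle-like cells it was -1.85 ± 0.56 (adjusted p = 0.0286), a call lost without WT replicate 1 (adjusted p = 0.0697), Din-KO replicate 1 (adjusted p = 0.129) or Din-KO replicate 2 (adjusted p = 0.195).

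Bgn, biglycan, the X-linked relative of decorin with known roles in bone and dentin mineralization, was the one tested gene besides Aspn with a higher level in perivascular-like than in dental pulp-like cells. Perivascular-like cells held 607, 681, 630 and 792 CPM and dental pulp-like cells 181, 238, 225 and 246 CPM, so the classes did not overlap (log2 fold change 1.45 ± 0.35, adjusted p = 0.00526). With cells named one by one the difference was 0.83 and was no longer called (adjusted p = 0.132). In Din-KO replicate 2, 1 of the 10 perivascular-like cells gave 83 of 143 UMIs. Dental follicle-like cells held 250, 461, 341 and 572 CPM, higher than dental pulp-like cells in each library, with a difference of 0.78 ± 0.32 that did not pass the threshold (adjusted p = 0.0664). Odontoblast-like cells held 121, 817, 247 and 697 CPM, again higher in the replicates numbered 2. Their difference from dental pulp-like cells, 1.06 ± 0.33, passed the threshold (adjusted p = 0.0158) but was 0.61 without WT replicate 2 (adjusted p = 0.154) and 0.76 without Din-KO replicate 2 (adjusted p = 0.136), and in WT replicate 1 the level was lower. The standard error of 0.33 is pooled over the classes and lies near those of dental follicle-like (0.32) and perivascular-like cells (0.35). It therefore does not show the wider spread of the odontoblast-like levels.

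Omd, osteoadherin, a mineral-binding protein of bone and dentin, had similar class levels in 3 classes and was low in perivascular-like cells. Dental pulp-like cells held 275, 243, 191 and 260 CPM, odontoblast-like cells 330, 182, 261 and 140 CPM, and dental follicle-like cells 207, 187, 197 and 240 CPM, ranges that overlapped. Clusters within a class were unlike. Omd averaged 290, 126, 273 and 62.6 CPM in the dental follicle-like clusters led by Spp1, Lpl, Tnn and Sfrp2. It averaged 302 and 53.4 CPM in the odontoblast-like clusters led by Smpd3 and Bglap. The difference between odontoblast-like and dental pulp-like cells was 0.10 ± 0.22 (adjusted p = 0.748), and between dental follicle-like and dental pulp-like cells -0.19 ± 0.21 (adjusted p = 0.528). Perivascular-like cells held 0, 9.21, 41.1 and 5.54 CPM, from 12 UMIs in 78 cells, lower than dental pulp-like cells in every library (log2 fold change -4.10 ± 0.44, adjusted p = 2.68e-06). The value was -1.35 with cells named one by one (adjusted p = 0.00253). It was -6.58 among cells with Xist, with perivascular-like cells of the 2 WT libraries only.

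Kera and Epyc were barely counted. Kera, keratocan, a corneal keratan sulfate proteoglycan, had 55 UMIs in all kept cells, and 44 of them lay in dental pulp-like cells, at 1.66, 1.14, 0.79 and 0 CPM. Epyc, epiphycan, a cartilage proteoglycan, had 110 UMIs, with 57 in dental pulp-like cells at 1.09, 1.14, 1.24 and 10.3 CPM. The high value of Epyc belonged to Din-KO replicate 2, the library with the fewest dental pulp-like cells, and rested on 16 UMIs. Neither gene had a UMI in the 78 perivascular-like cells. In a single library a count of 3 UMIs corresponds to between 13.7 and 17.5 CPM in these cells. Lower levels rest on fewer UMIs than that and could go uncounted, so their absence is not shown.

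Counted over the 8 genes tested, the odontoblast-like class differed from the dental pulp-like class in 4 (Bgn higher, Prelp, Fmod and Ogn lower), where 45.0% of all genes tested passed. The dental follicle-like class differed in 5 (Aspn and Ogn higher, Fmod, Lum and Prelp lower), against 37.5% of all genes. The perivascular-like class differed in 6 (Aspn and Bgn higher, Lum, Omd, Dcn and Fmod lower), against 24.4% of all genes. The share of the family that passed was near the background in the first of these contrasts and above it in the perivascular-like one. It was not tested as a list, and the members were chosen with earlier results of these data known. Of the perivascular-like calls, Dcn (edgeR adjusted p = 0.533) and Bgn (adjusted p = 0.132) were lost with cells named one by one. The median log2 fold change of the 8 genes was 0.31, -0.54 and -1.69 in the 3 contrasts, beside -0.04, -0.02 and -0.17 over all genes. In the perivascular-like contrast DESeq2 moved the split of all genes called from 1463 of 3203 higher to 1794 of 3210 higher, so the log2 fold changes of that class are best read relative to the median of -0.17. Between dental follicle-like and odontoblast-like cells 6 genes differed (45.3% of all genes), between perivascular-like and odontoblast-like cells 7 (28.9%) and between perivascular-like and dental follicle-like cells 5 (19.5%). In these last contrasts Aspn was at 7.51 ± 0.49 between perivascular-like and odontoblast-like cells (adjusted p = 8.81e-09). Prelp was at 5.49 ± 1.04 in the same contrast (adjusted p = 0.000682) and at 5.45 ± 0.58 between dental follicle-like and odontoblast-like cells (adjusted p = 1.25e-06). Its perivascular-like levels were 17.5, 9.21, 32.0 and 60.9 CPM, from 23 UMIs, and the highest immune sum was 16.9 CPM. In Din-KO replicate 2, 1 perivascular-like cell gave 10 of 11 UMIs. Among cells with Xist, where only the 2 WT libraries had enough perivascular-like cells, the difference from odontoblast-like cells was no longer called (adjusted p = 0.111).

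**Figure D2:**
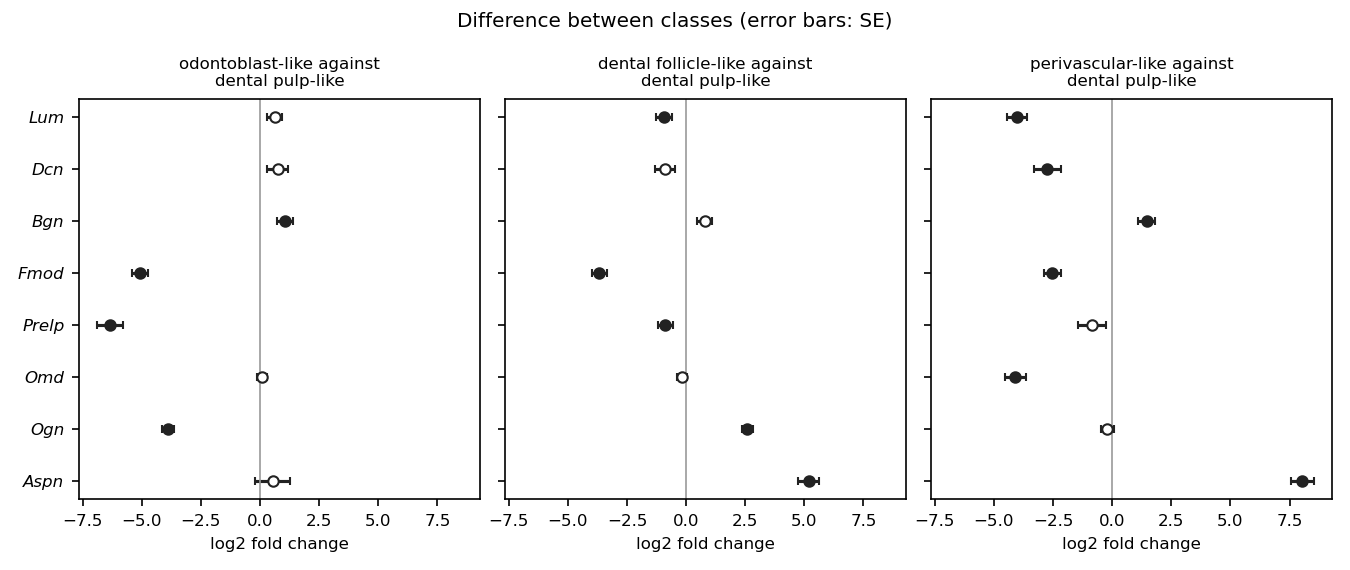
Log2 fold change of the 8 tested genes in odontoblast-like, dental follicle-like and perivascular-like cells against dental pulp-like cells. Points are edgeR estimates over 4 libraries, bars are standard errors, and filled points have an adjusted p of at most 0.05. Aspn reaches 8.04 in perivascular-like cells, Ogn is at 2.58 in dental follicle-like and -3.89 in odontoblast-like cells, and Fmod is below 0 in each panel.

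Within the classes the genes were not spread evenly. Of the clusters with dental pulp-like cells, the one led by Cldn10 held Prelp at 113 to 198 CPM over the libraries and the one led by Vcan at 0 to 3.31 CPM. Fmod lay between 911 and 1897 CPM in the clusters led by Cldn10 and Cnmd and between 0 and 27.9 CPM in the one led by Smoc2, which also held the least Dcn (85.4 to 147 CPM) and the highest mean of Bgn (412 to 659 CPM, overlapping the cluster led by Cnmd at 186 to 487 CPM) among the dental pulp-like clusters. Lum was also lowest in the cluster led by Smoc2 among the dental pulp-like clusters, at 284 to 497 CPM. Among dental follicle-like cells Aspn was concentrated in the cluster led by Spp1, Mmp13 and Ibsp, at 225 to 351 CPM, and was at most 21.2 CPM in the clusters led by Tnn and Sfrp2. Ogn was at 893 CPM or more in every library of those 3 clusters and at 446 to 1018 CPM in the cluster led by Lpl. Fmod averaged 212 and 91.6 CPM in the clusters led by Spp1 and Lpl, and 19.3 and 32.8 CPM in those led by Tnn and Sfrp2. Prelp averaged 81.8, 88.2, 6.34 and 21.1 CPM in the same order. So ordered, Dcn averaged 1006, 1052, 357 and 111 CPM, and Lum 1363, 597, 1097 and 256 CPM. Among odontoblast-like cells the cluster led by Bglap and Dspp held Bgn at 283 to 1514 CPM and Omd at 6.91 to 94.1 CPM, and the cluster led by Smpd3 held Bgn at 76.1 to 167 CPM and Omd at 191 to 409 CPM, without overlap. Dcn was also without overlap there, at 1156 to 2346 CPM against 518 to 987 CPM, while Lum overlapped, at 1482 to 3334 CPM against 2060 to 2524 CPM. Clusters were formed from these cells, so these ranges are a description without a test. Although left out of the clustering, Aspn was among the 10 leading genes of the clusters led by Spp1 and Rgs5, Prelp of the one led by Cldn10 and Fmod of the one led by Cnmd.

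**Figure D3:**
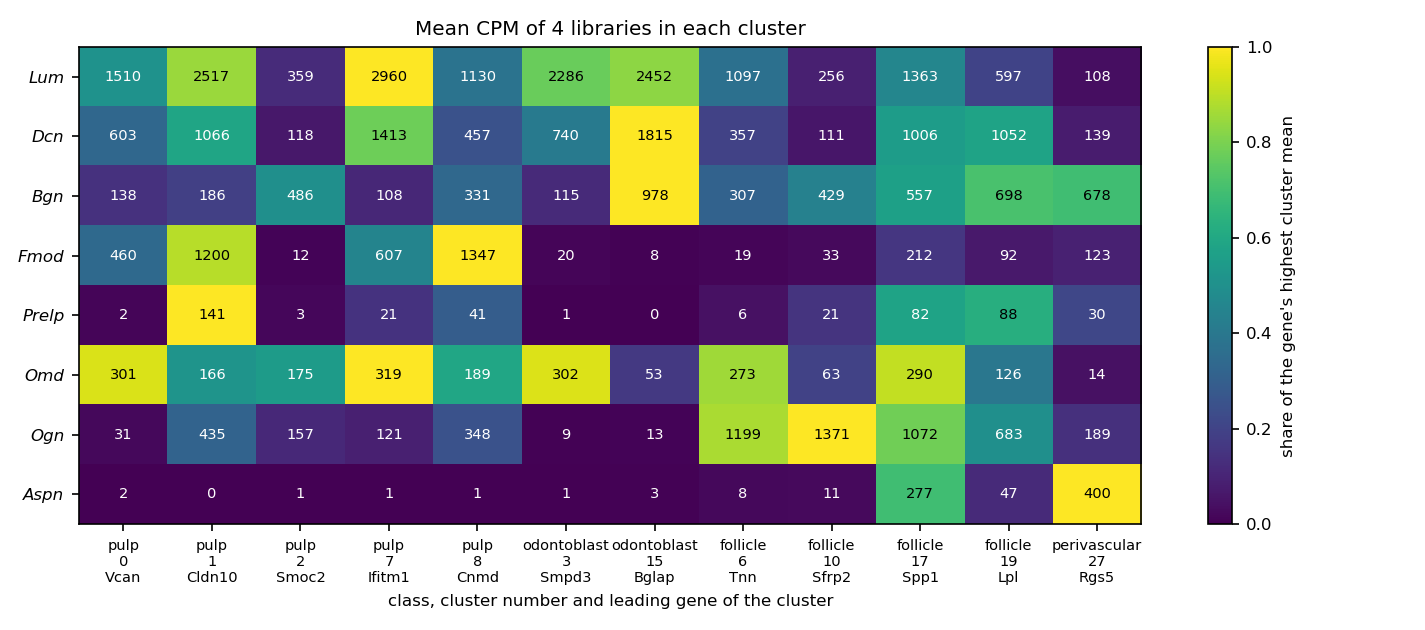
Mean level over 4 libraries (CPM, printed in each cell) of 8 genes in the 12 clusters of the 4 classes, colored by the share of the gene's highest cluster mean. Columns give the class, cluster number and leading gene. Aspn is at 400 CPM in the cluster led by Rgs5 and 277 CPM in the one led by Spp1, Bgn at 978 CPM and Dcn at 1815 CPM in the one led by Bglap, and Fmod at 12.1 CPM in the one led by Smoc2.

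Counted per cell, Aspn had a UMI in 86.1% ± 7.3 of perivascular-like cells (SD, n = 4 libraries), 13.4% ± 4.3 of dental follicle-like cells and 0.997% ± 0.871 of dental pulp-like cells. In B-like cells, which should lack it, the share was 0.246%. Median depths ran from 5751 to 10288 UMIs per perivascular-like cell and from 2603.5 to 3550 UMIs per B-like cell. With cells thinned to 2000 UMIs the shares were 48.3% ± 10.5, 4.74% ± 2.43 and 0.0974% ± 0.118, and 0.254% in B-like cells, so the dental pulp-like share was at the background level. The abundant genes were also counted in B-like cells: Lum had a UMI in 13.3% of B-like cells, or 8.002% thinned, against 89.9% ± 6.4 of dental pulp-like cells, or 78.4% ± 5.5 thinned, at median depths of 6839 to 10328.5 UMIs. In perivascular-like cells Lum had a UMI in 15.1% ± 5.5, or 4.65% ± 6.18 thinned, which is at the B-like share. Ogn had a UMI in 92.8% ± 1.9 of dental follicle-like cells, or 75.2% ± 3.6 thinned, and in 8.96% ± 2.40 of odontoblast-like cells, or 0.845% ± 0.604 thinned, beside 1.93% and 1.33% of B-like cells. Median depths were 10708 to 18041.5 UMIs in dental follicle-like and 11192.5 to 20203.5 UMIs in odontoblast-like cells. Bgn had a UMI in 94.7% ± 4.8 of perivascular-like cells and 68.7% ± 2.7 of dental pulp-like cells, or 67.9% ± 3.5 and 33.1% ± 3.2 thinned, beside 4.004% and 1.71% of B-like cells.

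Across the 16 library-by-class sums, Lum and Omd had the most similar pattern (Pearson's r = 0.93 on log2(CPM + 1)), followed by Dcn and Lum (r = 0.88), Dcn and Omd (r = 0.81), Fmod and Prelp (r = 0.79) and Ogn and Prelp (r = 0.78). Aspn ran against Lum (r = -0.83). The 16 sums share 4 libraries and 4 classes, so these are descriptions. Of all genes tested, the one most like Ogn was C1ra (r = 0.98), like Lum Capn6 (r = 0.97), like Aspn Il13ra1 (r = 0.97), like Omd Wdr6 (r = 0.96), like Prelp Plekha5 (r = 0.95), like Fmod Fyn (r = 0.95), like Dcn Sec16b (r = 0.94) and like Bgn Fndc3b (r = 0.90).

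The enzymes that build the sugar chains, and the collagens the core proteins bind, were counted from lists in the same contrasts, in which 45.0%, 37.5% and 24.4% of all genes passed. Unlike the 10 genes of the family, listed genes were not left out of the clustering. They may have helped to form the classes, so their counts, medians and p-values are descriptions of these classes. Of 22 genes for chondroitin and dermatan sulfate synthesis, all tested, 6 were higher and 4 lower in odontoblast-like than in dental pulp-like cells (median log2 fold change 0.08), 10 were higher and 2 lower in dental follicle-like cells (median 0.30), and 4 were higher and 1 lower in perivascular-like cells, so in odontoblast-like and perivascular-like cells the share that passed was near that of all genes. Chst11, a chondroitin 4-O-sulfotransferase, was at 11.6, 19.8, 13.9 and 12.8 CPM in dental pulp-like cells and at 32.4, 87.7, 39.8 and 77.8 CPM in odontoblast-like cells, higher in each library (log2 fold change 2.06 ± 0.18, adjusted p = 2.12e-07). Csgalnact1, which starts the chondroitin chain, was lower in odontoblast-like cells (-1.89 ± 0.34, adjusted p = 0.000284) and in dental follicle-like cells (-1.53 ± 0.31, adjusted p = 0.000861). Chsy3, a chondroitin synthase, was higher in dental follicle-like cells (1.74 ± 0.35, adjusted p = 0.000952) and in perivascular-like cells (3.24 ± 0.56, adjusted p = 0.000402, from 19 UMIs). Chst13, another chondroitin sulfotransferase, was at 14.7, 76.5, 27.8 and 60.6 CPM in odontoblast-like cells and had 4 UMIs in dental pulp-like cells. Of 8 genes for keratan sulfate synthesis 5 were tested, and 1 was higher and 2 lower in odontoblast-like cells (median 0.04), 4 were higher in dental follicle-like cells (median 0.99) and 2 were higher in perivascular-like cells. B4galt1, a galactosyltransferase, was higher in odontoblast-like cells by 1.45 ± 0.14 (adjusted p = 6.53e-07) and in dental follicle-like cells by 1.53 ± 0.14 (adjusted p = 2.82e-07). B3gnt2, which adds N-acetylglucosamine to the chain, was lower in odontoblast-like cells (-1.12 ± 0.33, adjusted p = 0.0112) and higher in perivascular-like cells (2.40 ± 0.39, adjusted p = 0.000205). No medians are given for perivascular-like cells, where some of the listed genes had no UMI.

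Of 11 fibrillar collagen genes, 8 were higher and 2 lower in odontoblast-like cells (median 2.28), 8 were higher and 1 lower in dental follicle-like cells (median 1.97), and 4 were higher and 3 lower in perivascular-like cells. Col24a1, a minor fibrillar collagen gene, was higher in odontoblast-like cells by 4.96 ± 0.35 (adjusted p = 2.12e-07), and Col5a2, a collagen V gene, in dental follicle-like cells by 2.56 ± 0.28 (adjusted p = 2.18e-06). In perivascular-like cells Col3a1, the collagen III gene, was higher by 1.60 ± 0.20 (adjusted p = 1.69e-05) and Col11a1, a collagen XI gene, was lower (-2.46 ± 0.69, adjusted p = 0.0147). Of 14 genes for collagen cross-linking and processing 12 were tested, with 7 higher and 2 lower in odontoblast-like cells (median 1.24), 7 higher and 1 lower in dental follicle-like cells (median 1.46), and 4 higher and 1 lower in perivascular-like cells. Adamts2, which trims procollagen, was higher in dental follicle-like cells by 3.46 ± 0.18 (adjusted p = 1.91e-09) and in perivascular-like cells by 4.32 ± 0.20 (adjusted p = 3.88e-10). Loxl2, a lysyl oxidase, was higher in dental follicle-like cells by 2.74 ± 0.24 (adjusted p = 2.55e-07). Col1a1, Col11a2 and Lox were among the 10 leading genes of the cluster led by Bglap, and Col5a3 of the one led by Rgs5, so no values are given for them. They were not taken out of the counts and medians of their lists. Of 9 other small leucine-rich protein genes 5 were tested. Podnl1 was higher in dental follicle-like cells by 4.91 ± 0.32 (adjusted p = 1.27e-08). Ecm2 was lower in odontoblast-like cells (-1.81 ± 0.29, adjusted p = 9.63e-05) and dental follicle-like cells (-0.76 ± 0.25, adjusted p = 0.0263) and higher in perivascular-like cells (2.02 ± 0.34, adjusted p = 0.000276). Tsku was lower in odontoblast-like, dental follicle-like and perivascular-like cells (-0.65, -0.82 and -2.36, adjusted p = 0.0411, 0.0118 and 0.0292). Chadl was lower in odontoblast-like cells (-1.61 ± 0.24, adjusted p = 0.000141) and had no UMI in perivascular-like cells. No listed gene was called between genotypes in any of the 4 classes.

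Din-KO and WT libraries were compared within each class, 2 against 2, with the same test and no covariate. No tested gene of the family passed the threshold in dental pulp-like cells (10 genes tested, 0.0148% of all genes passed), odontoblast-like cells (6 tested, 0% passed), dental follicle-like cells (8 tested, 0% passed) or perivascular-like cells (5 tested, 0.0274% passed). The adjusted p was at least 0.998 throughout, DESeq2 also called none, and so did edgeR among cells with Xist and without Y-linked transcripts in the 3 classes with enough such cells. An unadjusted p under 0.05 was reached by 1 gene, Ogn in perivascular-like cells. Over all genes 214 of 13541, 104 of 11837, 287 of 12970 and 134 of 3648 had an unadjusted p under 0.05 by edgeR in the 4 classes. Each share is below the 0.05 that evenly spread p-values would give, so high p-values here do not show equal levels. DESeq2 called 13, 4, 41 and 3. The 3 genes called by edgeR were Ddx3y and Eif2s3y, both on the Y chromosome, in dental pulp-like cells and Ube2c in perivascular-like cells. Of 5 sex-linked check genes, 0 were called in odontoblast-like and dental follicle-like cells, at median log2 fold changes of 9.13 and 9.96. Large differences could therefore go uncalled in these tests. The median log2 fold change of the tested genes of the family was -0.12, -0.02, 0.20 and 0.11, beside -0.01, -0.03, -0.02 and -0.01 over all genes tested.

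Of the genes abundant in dental pulp-like cells, Lum and Dcn each differed there by 0.00 ± 0.24 (log2, SE), and Bgn by 0.18 ± 0.24. Fmod was at -0.41 ± 0.33, with 1 of the 2 Din-KO libraries (411 CPM) lower than both WT libraries and the other (716 CPM) between them. Ogn was at -0.50 ± 0.38, and the WT libraries (312 and 159 CPM) enclosed both Din-KO libraries. With the replicate number as a block, Fmod (-0.46, adjusted p = 0.00732) and Ogn (-0.45, adjusted p = 0.0229) were called by edgeR, among 501 of 13541 genes. The make-up of the dental pulp-like class differed between the genotypes. The cluster led by Smoc2 (mean Fmod 12.1, Ogn 157 CPM) gave 202 of 1964 and 30 of 232 cells in WT. In Din-KO it gave 562 of 2125 and 53 of 157. The cluster led by Cldn10 (mean Fmod 1200, Ogn 435 CPM) gave 702 and 76 cells in WT and 451 and 27 in Din-KO. Whether the Fmod and Ogn values follow this mix was not tested. In odontoblast-like cells Lum differed by 0.11 ± 0.23 and lay above both WT libraries in both Din-KO libraries, while Bgn (-0.04 ± 0.98) and Dcn (-0.01 ± 0.57) had large errors, as the replicate numbers differed more than the genotypes. In dental follicle-like cells Dcn was at 0.71 ± 0.63, Prelp at 0.42 ± 0.48, Fmod at 0.34 ± 0.32 and Aspn at -0.33 ± 0.45. In perivascular-like cells Ogn was lower in both Din-KO libraries (128 and 149 CPM) than in both WT libraries (257 and 221 CPM), by 0.81 on the log2 scale (log2 fold change -0.81 ± 0.32, unadjusted p = 0.033, adjusted p = 0.998 by edgeR). These levels rest on 44 and 48 UMIs in WT and 28 and 27 in Din-KO, of which single cells gave 16, 24, 9 and 18. Fmod was at 0.73 ± 0.46, Lum at 0.46 ± 1.03, Aspn at -0.40 ± 0.36 and Bgn at 0.11 ± 0.32 in these cells.

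Counting genes whose Din-KO libraries both lay above or both below the WT libraries, 1 was above (Epyc) and 2 below (Aspn and Kera) in dental pulp-like cells, 1 above (Lum) and 1 below (Aspn) in odontoblast-like cells, none in dental follicle-like cells, and 1 above (Prelp) and 1 below (Ogn) in perivascular-like cells. Over all genes tested 9.86% were above and 12.8% below in dental pulp-like cells, 12.2% and 6.84% in odontoblast-like cells, 15.2% and 8.07% in dental follicle-like cells, and 15.9% and 13.1% in perivascular-like cells. The counts cover all 10 genes and the shares only genes that passed the filter, which Aspn in odontoblast-like and Prelp in perivascular-like cells did not. Apart from Lum these were values with few UMIs: Aspn had at most 42 in a dental pulp-like sum, and Ogn at most 48 and Prelp at most 11 in a perivascular-like sum. Whether the genotype difference itself differed between classes was tested as an interaction with dental pulp-like cells, and 0 of 8 genes passed in odontoblast-like, dental follicle-like or perivascular-like cells (0%, 0% and 0% of all genes). DESeq2 called none of them either, while over all genes it called 0, 1 and 14. By edgeR, 183, 253 and 830 of 14052 genes had an unadjusted p under 0.05. The 2 tested interactions of the family with an unadjusted p under 0.05 by edgeR were Ogn in odontoblast-like and Dcn in perivascular-like cells. Ogn differed by 1.12 ± 0.42 (adjusted p = 1), from odontoblast-like levels of at most 19.4 CPM, within the immune range of up to 63.5 CPM. Dcn differed by -2.48 ± 1.12 (adjusted p = 0.83), with 71 of 104 UMIs of WT replicate 2 from 1 cell.

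**Figure D4:**
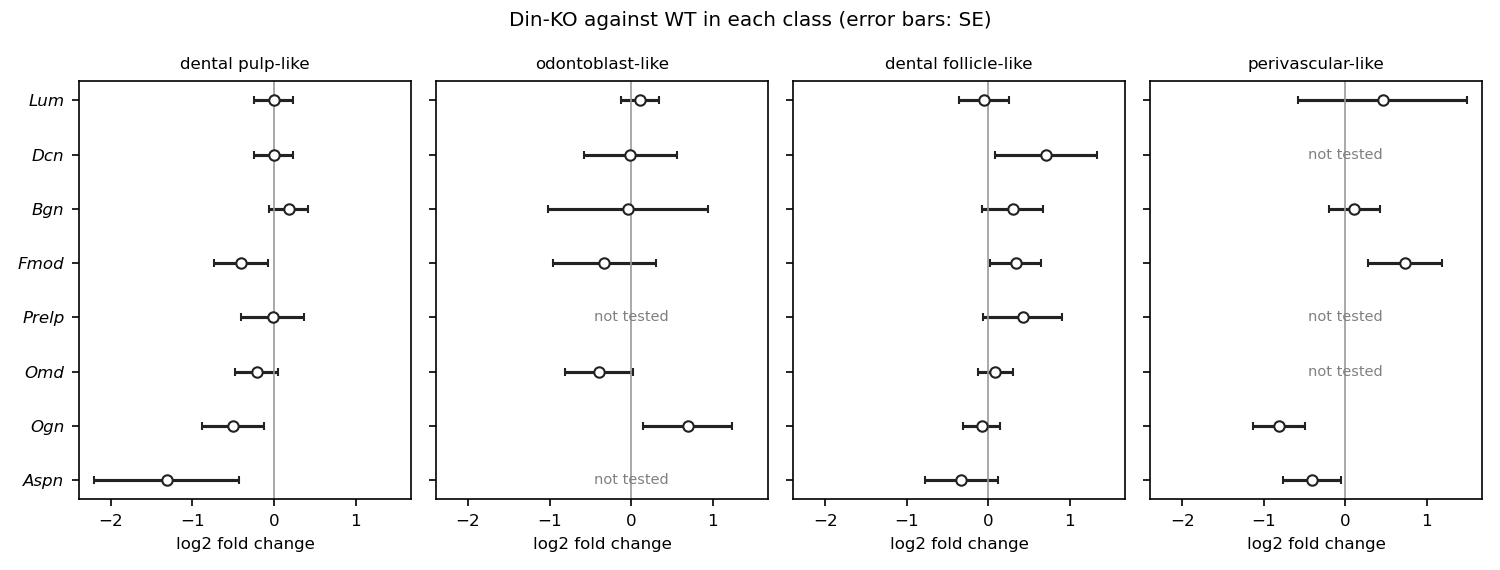
Log2 fold change of Din-KO against WT libraries in each of the 4 classes for 8 genes. Points are edgeR estimates (2 libraries against 2), bars are standard errors, and open points have an adjusted p over 0.05, which holds for every point drawn. Lum and Dcn lie at 0.00 in dental pulp-like cells and Ogn at -0.81 in perivascular-like cells.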

How the data were processed

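Single-cell libraries from WT mice (2) and Din-KO mice (2) were analysed. Per the labels and the matrix headers, the authors used Cell Ranger 6.0.2 with the mouse build mm10/GRCm38. The deposited matrices hold raw UMI counts for each barcode, with nothing normalized.

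The study's filters were followed: a cell needed 1000 genes or more, and its mitochondrial and hemoglobin UMIs could not exceed 10% and 3%. Seurat 5.3.0 (R 4.3.3) integrated the libraries on 2000 variable genes, the members excluded, and clustered on 30 components at resolution 1. A cluster took the class with the highest mean marker score (at least 0.5, and 0.1 above the next unless it had more of its markers among the leading genes), with at least 3 markers detected in 10% of its cells, unless its 10 leading genes held more markers of another class. Scrublet (scanpy 1.11.5, Python 3.11.15) marked 107 cells (0.946%) as doublets, and none were removed in the reported values. UMIs were summed per library and class (at least 10 cells) and tested with edgeR 4.0.16 (TMM, its low-count filter, quasi-likelihood, Benjamini-Hochberg, threshold 0.05), with DESeq2 1.42.0 as an alternative. CPM are UMIs per 1000000 of the sum, and correlations used log2(CPM + 1). On simulated counts with 200 genes changed 4-fold, 72.5%, 49%, 75% and 72% were recovered in the genotype comparisons of dental pulp-like, odontoblast-like, dental follicle-like and perivascular-like cells, and 94% between odontoblast-like and dental pulp-like cells. False calls numbered 2, 0, 7, 6 and 9 in the same order. The simulated libraries were drawn independently, without the deviation shared by libraries of the same replicate number. The recovered shares therefore need not hold for the real counts.

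Named genes were the 10 members, the genes most correlated with each, and, per list and contrast with dental pulp-like cells, genes among the 3 called with the largest absolute log2 fold change, or every called gene of the other small leucine-rich proteins. Genes of these with few UMIs, or leading a cluster, are left out or given without a fold. The members and lists were chosen with earlier results of these data known. Sequences came from RefSeq and coordinates from GENCODE, and SciPy 1.17.1 was used for sparse matrices. Each library was also left out in turn. Precision is limited by 2 libraries per genotype and by the UMIs per sum, and free RNA was not removed.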

Additional observations from a re-analysis of the deposited data

Results flagged for a closer look

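In the named classes other than dental pulp-like, odontoblast-like, dental follicle-like and perivascular-like cells, 4 levels exceeded those of all 16 immune class-by-library sums in each of the 4 libraries. Bgn averaged 222 CPM in endothelium-like cells, from 166 to 291 CPM, where the immune sums reached 42.3 CPM. It averaged 352 CPM in glia-like cells, from 204 to 587 CPM, and 1 cell gave 58 of the 126 UMIs of WT replicate 2. Ogn averaged 422 CPM in glia-like cells, with 558, 140, 544 and 445 CPM in WT replicate 1, WT replicate 2, Din-KO replicate 1 and Din-KO replicate 2, against at most 63.5 CPM in the immune sums. In WT replicate 2, 1 of the 14 glia-like cells gave 27 of the 30 UMIs of Ogn. Single cells also gave 26 of 57 in WT replicate 1 and 40 of 98 in Din-KO replicate 1. Aspn averaged 24.8 CPM in endothelium-like cells, from 7.47 to 61.6 CPM, against at most 1.96 CPM. The glia-like class held between 14 and 45 cells per library. None of these levels was part of a planned comparison, and none was tested.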

How the results depend on the processing

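Of 33 differences between classes that passed the threshold, 22 kept their direction and call under all 14 alternatives. Between dental follicle-like and dental pulp-like cells 4929 of 13154 genes were called in all. That count was 3207 without the library block and 5270 without the filter on low counts. The number of genes of the family called in this contrast was 5 of 8 tested. It was 3 with DESeq2, at resolution 0.5 or without the library block, and 3 to 6 with 1 library left out. It was 9 without the filter, then with Kera and Epyc, which had too few UMIs for the filter. Between genotypes it was 0 in perivascular-like cells and 1 without the filter on low counts, and 0 to 1 with 1 library left out. The interactions gave 0, then 1 without the filter and 0 to 1 with 1 library left out. In each case the gene was Dcn, for which 1 cell gave 71 of 104 UMIs in WT replicate 2.

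Directions turned in 6 cases where the value was called before or after, and in 74 more where it was called in neither. Aspn in odontoblast-like against dental pulp-like cells (0.53) was -1.69 without WT replicate 2, between -1.69 and 1.38 over the fits with 1 library left out, and -1.49 without the cells of highest doublet score (adjusted p = 0.0246). With the members allowed in the clustering, the cluster led by Bglap and Dspp scored highest for osteoblast markers and was left unnamed, and Bgn was at -0.033 between odontoblast-like and dental pulp-like cells and at 0.86 between dental follicle-like and odontoblast-like cells (adjusted p = 0.00193). With cells named one by one from markers, which gave more perivascular-like cells, Fmod was at -0.29 between dental follicle-like and odontoblast-like cells and Dcn at 0.57 between perivascular-like and dental follicle-like cells. The causes were not tested. With cells named one by one, Dcn and Bgn between perivascular-like and dental pulp-like cells (-0.24 and 0.83) and Lum between perivascular-like and dental follicle-like cells (-0.28) were also no longer called. Restricting to cells with Xist left under 10 perivascular-like cells in each Din-KO library, so these sums were dropped. The genotype comparison could not be made in perivascular-like cells, and their contrasts with other classes used only the 2 WT libraries on the perivascular-like side. Dcn between perivascular-like and dental pulp-like cells was then at -1.94 (adjusted p = 0.0758).

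The replicate numbers are those of the sample titles. The library names in the labels carry other numbers, so a shared number may not mark a shared batch. Same-numbered libraries did deviate together, with r = 0.54 in dental pulp-like, 0.71 in odontoblast-like, 0.59 in dental follicle-like and 0.17 in perivascular-like cells. They were also alike in size, with 6613 and 6958 barcodes for number 1 and 3257 and 3674 for number 2. The main genotype test has no term for this, and 2 pairs are too few to establish a shared batch. With the replicate number as a block, 2 genes of the family passed edgeR's test between genotypes in dental pulp-like cells, Fmod (-0.46, adjusted p = 0.00732) and Ogn (-0.45, adjusted p = 0.0229). They were among 501 of 13541 genes called, against 2 without the block, and 0 of the family passed in the other 3 classes. With 4 libraries such a fit leaves little from which to estimate the spread.

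Over all genes, the number called between genotypes was 2, 0, 0 and 1 in dental pulp-like, odontoblast-like, dental follicle-like and perivascular-like cells, and it ranged over the alternatives from 0 to 501, 0 to 83, 0 to 158 and 0 to 123. Between dental follicle-like and dental pulp-like cells 4929 genes were called, and 3207 without the library block. Between perivascular-like and dental pulp-like cells 3203 were called, 1887 with cells named one by one and 1680 among cells with Xist. The latter setting also lowered the other perivascular-like contrasts, from 3808 to 2512 and from 2559 to 1203. It held perivascular-like sums of the 2 WT libraries only.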

Other observations

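One cluster of 210 cells, led by Pdlim3 and Postn, could not be named, because its leading genes held more markers of another class. Lum was at 3242, 4953, 3843 and 2468 CPM and Dcn at 959, 2539, 1262 and 1921 CPM in its WT replicate 1, WT replicate 2, Din-KO replicate 1 and Din-KO replicate 2 cells, of which there were 86, 3, 113 and 8. Prelp was at 179, 149, 165 and 117 CPM there. Lum, Dcn, Prelp, Fmod and Bgn were each above the highest immune sum in all 4 libraries. Aspn had 2 UMIs in these 210 cells.

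Epithelium-like cells held Bgn at 13.2 to 59.3 CPM and Lum at 32.5 to 52.9 CPM, where the immune sums reached 42.3 and 246 CPM. Dcn in glia-like cells was at 1706 CPM in WT replicate 2 and at 0, 0 and 21.2 CPM in the other 3 libraries, and 1 cell gave 354 of those 366 UMIs.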
